A study of Mus musculus with 7 samples.

Results

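The genes described are 9 transcripts for the transport of ions, water, glucose and lipid and for endocytosis in trophectoderm: Atp1b1, Aqp3, Aqp8, Aqp9, Slc2a3, Fabp3, Dab2, Lrp2 and Gm2a. They were chosen by symbol from a table of raw read counts, and all 9 were among its 26586 gene symbols. The table covers 7 single mouse embryos on the C57BL/6 background, taken at the morula stage at 3 days post coitum. Each embryo was flushed from a pregnant L13a(+/-) mouse after a cross between L13a+/- mice and received no treatment. L13a is an older name of Rpl13a, a ribosomal protein gene. The labels name no genotype for any single embryo, so wild-type, heterozygous and mutant embryos may be mixed. They also do not say how the allele was made. The embryos form 1 group, numbered as replicates 1 to 7, and no groups were compared.

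A mouse embryo turns from a solid morula into a hollow blastocyst by pumping fluid through its outer cell layer, the trophectoderm. The sodium pump, made of a catalytic alpha subunit and a beta subunit that carries it to the membrane, moves sodium across the basolateral face, and water follows, in part through aquaporins. The same epithelium takes up glucose, fatty acids and proteins, the last through clathrin-coated pits that hold receptors such as megalin (Lrp2) and adaptors such as Dab2. Dab2 and Lrp2 also serve the primitive endoderm, the second epithelium of the blastocyst.

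The 250 bases before the RefSeq start of 5 of these genes are shown. Aqp3, Aqp8, Fabp3 and Lrp2 were highest in 1 embryo, and Aqp9 was highest in another. Gm2a was highest in the same embryo as Aqp3 and is not printed. The sequences are from RefSeq on GRCm38.p6, written 5′ to 3′ along the strand of the gene, with CG pairs in capitals. They lie at chr4:41098184-41098433 (minus strand) for Aqp3, chr7:123462044-123462293 (plus) for Aqp8, chr9:71163290-71163539 (minus) for the first of 2 annotated starts of Aqp9, chr4:130308488-130308737 (plus) for Fabp3 and chr2:69586030-69586279 (minus) for Lrp2.
Aqp3: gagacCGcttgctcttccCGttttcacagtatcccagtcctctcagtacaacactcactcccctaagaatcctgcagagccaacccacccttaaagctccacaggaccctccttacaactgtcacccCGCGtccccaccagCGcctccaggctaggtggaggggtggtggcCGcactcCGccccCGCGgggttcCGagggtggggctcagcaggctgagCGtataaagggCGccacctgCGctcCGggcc
Aqp8: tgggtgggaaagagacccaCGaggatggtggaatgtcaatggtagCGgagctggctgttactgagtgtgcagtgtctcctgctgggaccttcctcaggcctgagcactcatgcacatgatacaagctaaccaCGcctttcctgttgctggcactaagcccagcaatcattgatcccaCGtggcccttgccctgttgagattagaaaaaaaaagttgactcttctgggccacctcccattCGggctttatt
Aqp9: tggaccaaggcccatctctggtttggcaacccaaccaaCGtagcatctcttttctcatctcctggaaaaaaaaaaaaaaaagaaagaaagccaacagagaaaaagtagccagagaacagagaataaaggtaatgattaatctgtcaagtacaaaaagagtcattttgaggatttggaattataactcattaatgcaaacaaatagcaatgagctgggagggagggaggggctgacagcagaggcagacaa
Fabp3: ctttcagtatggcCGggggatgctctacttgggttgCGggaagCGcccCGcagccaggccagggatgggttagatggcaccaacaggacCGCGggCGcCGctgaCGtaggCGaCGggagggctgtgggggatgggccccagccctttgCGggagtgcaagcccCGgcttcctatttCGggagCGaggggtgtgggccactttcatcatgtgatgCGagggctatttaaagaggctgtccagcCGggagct
Lrp2: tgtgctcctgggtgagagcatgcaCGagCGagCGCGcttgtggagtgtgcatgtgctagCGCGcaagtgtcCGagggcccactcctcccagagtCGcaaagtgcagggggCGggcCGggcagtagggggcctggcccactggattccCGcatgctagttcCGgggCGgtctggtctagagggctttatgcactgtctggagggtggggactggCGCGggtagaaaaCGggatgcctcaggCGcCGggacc
Aqp3, Fabp3 and Lrp2 had 14, 17 and 18 CG pairs in this window, against a median of 6 over 32851 RefSeq windows of the same length. Aqp8 had 5 and Aqp9 had 1. A count of 14 or more was found in 29.4% of all windows, and Atp1b1 (24 pairs), Gm2a (19) and the second start of Dab2 (17) also had as many. RefSeq windows were matched for 8 of the 9 genes, all but Slc2a3, with 10 starts in all. By the GENCODE gene positions given below, the printed Aqp9 window lies inside the gene. Those of Aqp8, Fabp3 and Lrp2 overlap their genes in part.

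Core letters bound by trophectoderm factors were searched on both strands of these windows. The TEAD core GGAATG was found before Aqp8 alone, at a background of 12.6% of all windows. The TFAP2 core GCCNNNGGC, which reads the same on both strands, was found before Lrp2 and the second start of Dab2 (background 13.7%). The CDX core TTTATG was found before Lrp2 and the second start of Aqp9 (10.8%), and the GATA core AGATAA before none of the 10 starts (9.99%). A match describes letters in the window and is not a binding site.

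The libraries differed widely, and 2 of them stood apart. Total counts ran from 139619 in replicate 6 to 33123742 in replicate 4, and the number of genes with a count from 1749 to 12064 in the same libraries. Rpl13a, the gene of the cross, was at 86.5, 119, 5.51, 530, 3.26, 7.16 and 23.5 CPM (CPM is the count scaled to a common library total) in replicates 1 to 7. Trophectoderm markers were counted for 13 of 14 genes in replicate 4 and for none in replicate 6. Of all genes with a mean CPM of at least 1, 84 and 14.8% were counted in these libraries. Replicate 6 also had the highest sums of oviduct and uterine epithelium markers (6289 CPM) and of stroma and muscle markers (4348 CPM). Oocyte markers summed to 39.4 CPM in replicate 4 and to between 608 and 15712 CPM in the other 6. In such bulk libraries, fewer cells of a type and less RNA per cell cannot be told apart. SMART-Seq v4 cDNA carries no molecular identifiers, so the intervals and limits below cover counting error only, and nothing in the labels says that the embryos came from separate litters. The p-values below cover no more than sample-to-sample spread, and that spread may be technical.

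The 9 genes did not share a pattern. Aqp3, Aqp8, Slc2a3, Fabp3, Lrp2 and Gm2a, 6 of the 9, had their highest CPM in replicate 4, where 29.6% of all genes tested had theirs (11810 genes whose mean CPM was at least 1). Atp1b1 was highest in replicate 7 (19.2% of all genes), Aqp9 in replicate 1 (10.9%) and Dab2 in replicate 6 (5.77%). Without replicate 6, Dab2 was also highest in replicate 4, which made 7 of 9, an alternative chosen after seeing the data. With DESeq2 size factors the number was 5, since Gm2a was then highest in replicate 5, and Atp1b1 moved to replicate 1. The genes were chosen with earlier results of these data known, so these counts are descriptions.

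**Figure D1:**
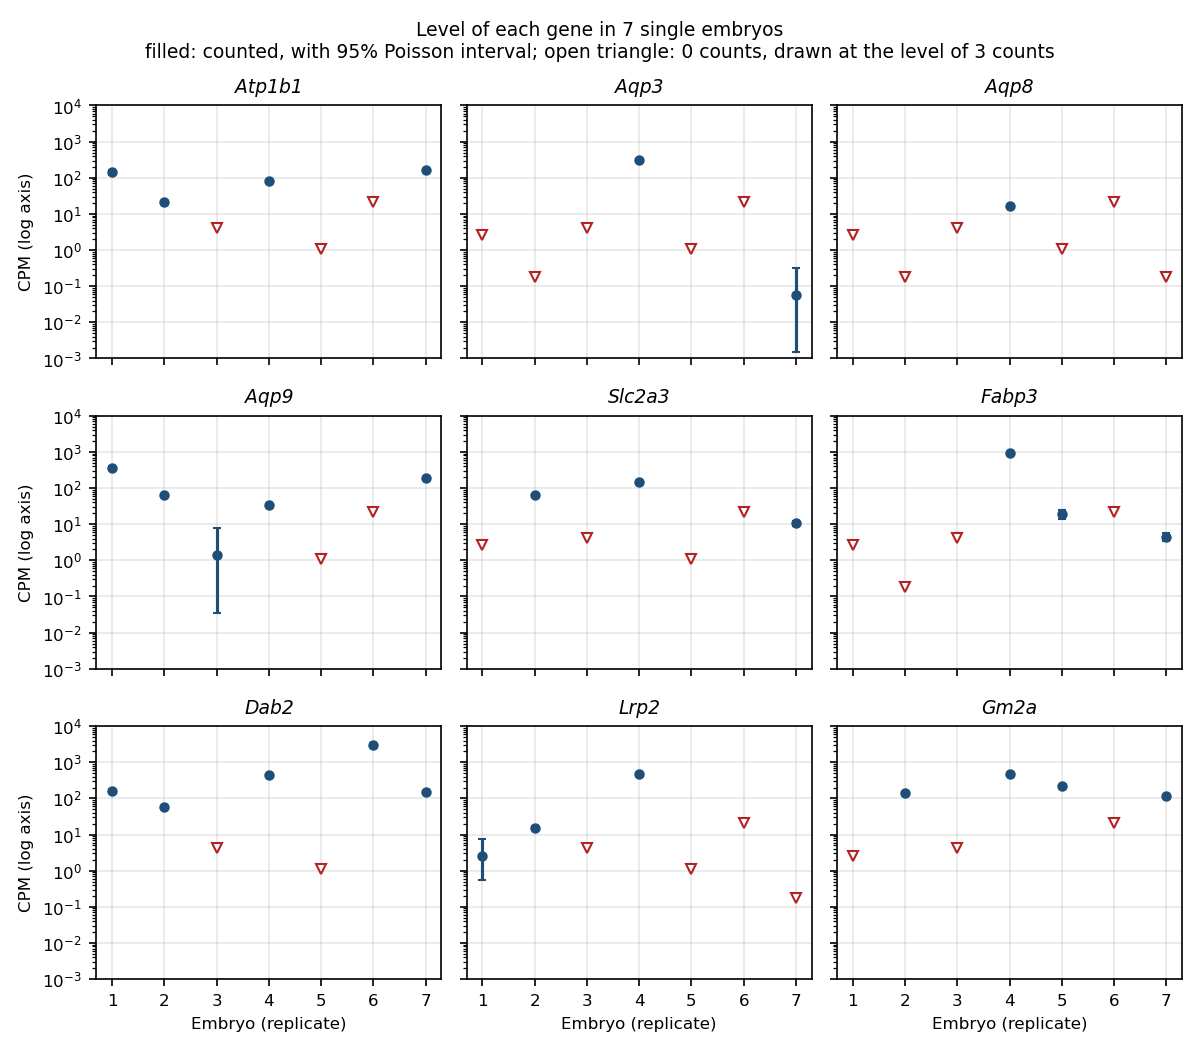
Level of each of the 9 genes in CPM (vertical log axis) in the 7 embryos (horizontal axis). Filled points are counted values with 95% Poisson intervals, and open triangles stand at the level of 3 counts where the gene had 0 counts. Aqp3 and Aqp8 stand high in replicate 4 alone, Atp1b1 and Aqp9 are highest in replicates 7 and 1, and Dab2 reaches 3065 CPM in replicate 6.

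The number of the 9 genes counted in each embryo is given beside the share of all genes tested that were counted there. In replicate 4 all 9 had a count, against 84% of the 11810 genes. The number was 7 of 9 in replicate 7 (69.5% of all genes), 6 in replicate 2 (72.1%) and 4 in replicate 1 (41.7%). Replicate 5 had 2 of 9 (27.7%), replicate 3 had 1 (29%) and replicate 6 had 1 (14.8%). In replicate 4 the 9 genes together took 0.293% of the counts (95% Clopper-Pearson interval 0.291 to 0.294), and in replicate 6 they took 0.307% (0.278 to 0.337), all of it Dab2. Replicates 1, 7, 2 and 5 followed with 0.0668, 0.0633, 0.0370 and 0.0236%, and replicate 3 had a single read, of Aqp9.

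Among the beta subunits of the sodium pump, Atp1b1 had the most counts in replicates 1, 2 and 7, Atp1b2 in replicate 3 and Atp1b3 in replicate 4. Atp1b1 (ENSMUSG00000026576.12, chromosome 1 from 164437109 to 164458355, minus strand) encodes the beta-1 subunit. Reads were found in 4 embryos, with 162, 344, 2714 and 2780 counts in replicates 1, 2, 4 and 7, and replicates 3, 5 and 6 were at 0. These equal 142 CPM (95% Poisson interval 121 to 165), 20.9 (18.8 to 23.2), 81.9 (78.9 to 85.1) and 162 (156 to 169). Replicates 7 and 1 were the highest, with a ratio of 1.15 (0.978 to 1.35), so their order was not separated from counting error, while replicates 4 and 2 lay clearly below. The 3 embryos without a count could have held up to 1.09 CPM in replicate 5, 4.13 in replicate 3 and 21.5 in replicate 6 (the level of 3 counts).

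Atp1b3, which encodes the beta-3 subunit, was counted in 6 embryos and was highest in replicate 4. Its levels were 13.1, 15.0, 16.5, 97.9, 0.362, 0 and 0.701 CPM in replicates 1 to 7. Atp1b1 made up 99.6% of the beta subunit counts in replicate 7 (95% Clopper-Pearson interval 99.3 to 99.8) and 91.5% in replicate 1 (86.4 to 95.2). The share was 58.2% in replicate 2 (54.1 to 62.2) and 45.6% in replicate 4 (44.3 to 46.8), and replicate 3 had 0 of 98 reads, all others being Atp1b2 or Atp1b3. Per kb of merged exon, replicate 4 had 26.6 CPM of Atp1b1 and 41.0 of Atp1b3. In replicate 7 these genes were at 52.7 and 0.293 CPM per kb, so the order of the beta subunits differed between the 2 embryos. Fxyd4, a small regulator of the pump, was at 415 CPM in replicate 1, 76.2 in replicate 2, 12.2 in replicate 4 and 4.09 in replicate 7. Of the 14 pump genes listed, 8 had a mean CPM of 1 or more and 0 passed the test of spread described below.

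Atp1b1 overlaps Nme7 on the opposite strand, and no source used here says whether the counting used strand. Nme7 had 107, 2240, 0, 383, 0, 0 and 691 counts in replicates 1 to 7, in the same 4 embryos as Atp1b1 but in other proportions. Whether the 2 genes shared reads was not determined.

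The aquaporins divided between embryos. Aqp3 (ENSMUSG00000028435.8, chromosome 4 from 41092722 to 41098183, minus strand) encodes a channel for water and glycerol. It had 10253 counts in replicate 4 (310 CPM, 304 to 316), 1 in replicate 7 and 0 in the other 5 embryos. Its level in replicate 4 was 1698-fold the level of 3 counts in replicate 2, the deepest library without a read of it. In replicate 6, the smallest library, 3 counts equal 21.5 CPM, so the comparison there is much weaker. Aqp8 (ENSMUSG00000030762.11, chromosome 7 from 123462291 to 123468004, plus strand), a water channel that also passes ammonia and hydrogen peroxide, had 536 counts in replicate 4 (16.2 CPM, 14.8 to 17.6) and 0 in all others. That level was 92.4-fold the level of 3 counts in replicate 7, the deepest library without a read of Aqp8. Across all 11810 genes, 7.62% were counted in replicate 4 and no other embryo, as Aqp8 was.

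Aqp9 (ENSMUSG00000032204.13, chromosome 9 from 71110659 to 71168682, minus strand), a channel for water, glycerol and other small neutral solutes, went another way. It had 413, 1048, 1, 1158 and 3273 counts in replicates 1, 2, 3, 4 and 7, or 361 (327 to 398), 63.7 (59.9 to 67.7), 1.38 (0.0349 to 7.68), 35.0 (33.0 to 37.0) and 191 (185 to 198) CPM. Replicate 1 exceeded replicate 7 by 1.89-fold (1.70 to 2.09), and replicates 2 and 4 were lower again with intervals that did not overlap. Aqp9 supplied every aquaporin read in replicates 1 and 2 and 99.9% of them in replicate 7, but 9.69% in replicate 4, where Aqp3 supplied 85.8% (85.2 to 86.4). Per kb of exon, replicate 4 had 169 CPM of Aqp3, 10.2 of Aqp8 and 8.44 of Aqp9. Of the remaining aquaporins, Aqp11 had 17 counts in replicate 3 (23.4 CPM) and 1 in replicate 7, and Aqp7 had 1 in replicate 4. The other 7 of the 12 listed had none in any embryo. None of the 4 that were tested passed the test of spread. At the level of replicate 4, the smallest library would have held on average 43.2 reads of Aqp3 but 2.26 of Aqp8, so the 0 of Aqp8 in replicate 6 says little.

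**Figure D2:**
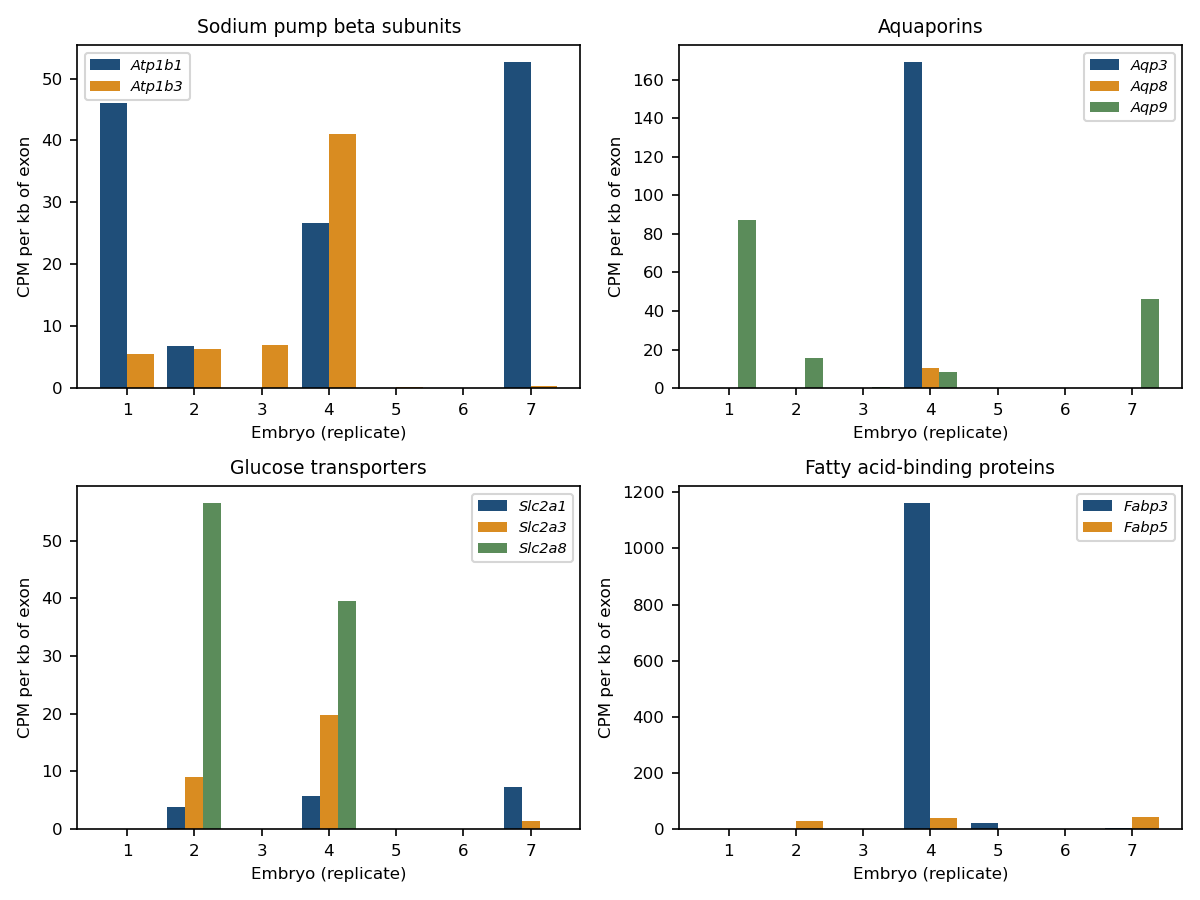
Level per kb of merged exon (CPM per kb, vertical axis from 0) of related genes in the 7 embryos (horizontal axis), for sodium pump beta subunits, aquaporins, glucose transporters and fatty acid-binding proteins. Replicate 4 has Aqp3 at 169 and Fabp3 at 1162 CPM per kb, while in replicates 1 and 7 Atp1b1 and Aqp9 have the tallest bars of the first 2 panels.

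Atp1b1 and Aqp9 were highest in replicates 1 and 7, libraries with many oocyte transcripts and few trophectoderm markers. There, 41.7 and 69.5% of all genes tested were counted. Oocyte markers were counted for 11 of 15 and 15 of 15 genes (7932 and 15712 summed CPM), and trophectoderm markers for 2 and 4 of 14 (12.2 and 65.8 summed CPM). Krt8 and Cdx2 were at 0 in both. Replicate 3 had 10103 CPM of oocyte markers with 1 read of Aqp9 and none of Atp1b1, and replicate 2 had 8072 CPM of them with lower levels of both genes. The part of oocyte RNA in these levels was not tested. Oviduct and uterine epithelium markers were counted for 4 of 12 and 6 of 12 genes in replicates 1 and 7 (1153 and 240.0 summed CPM). These counts stand beside the same 41.7 and 69.5% of all genes, and the part of this tissue was not tested either. Markers of cumulus and granulosa cells were at 0 in both.

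Among ion carriers, the one counted in most embryos had its highest level outside replicate 4. Slc12a2, the sodium-potassium-chloride cotransporter, was counted in all 7 embryos, with 456 CPM in replicate 2, 182 in replicate 5 and 16.9 in replicate 4. Of 16 listed exchangers and channels, 9 were tested, 0 passed the test of spread and 3 had their highest CPM in replicate 4, close to the 29.6% of all genes.

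Slc2a3 (GLUT3, ENSMUSG00000003153.10, chromosome 6 from 122727809 to 122801640, minus strand), a glucose transporter of high affinity, was counted in 3 embryos. It had 1080, 4751 and 181 counts in replicates 2, 4 and 7, or 65.6 (61.8 to 69.7), 143 (139 to 148) and 10.6 (9.09 to 12.2) CPM. Replicate 4 exceeded replicate 2 by 2.19-fold (2.04 to 2.34), and the intervals of the 3 embryos did not overlap. No glucose transporter among 14 had a count in replicates 1, 3, 5 and 6. Slc2a1 (GLUT1), the widely used basal transporter, was at 13.4, 20.2 and 25.6 CPM in replicates 2, 4 and 7. Slc2a3 took 83.1% (80.9 to 85.1) and 87.7% (86.8 to 88.5) of the reads of these 2 genes in replicates 2 and 4, but 29.2% (25.6 to 32.9) in replicate 7. Per kb of exon, Slc2a3 and Slc2a1 were at 9.06 and 3.81 CPM in replicate 2 and at 19.8 and 5.75 in replicate 4. In replicate 7, Slc2a3 was at 1.46 and Slc2a1 at 7.31 CPM per kb. Slc2a8 (GLUT8), an intracellular transporter, was above both per kb of exon in replicate 2 (56.6 CPM per kb) and replicate 4 (39.6), and was at 0 elsewhere. Of 4 transporters tested, 0 passed the test of spread. The annotated Slc2a3 locus overlaps the processed pseudogene Gm4482 on the same strand, and whether reads were shared was not determined.

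Fabp3 had the highest level per kb of all 9 genes, in 1 embryo. Fabp3 (ENSMUSG00000028773.8, chromosome 4 from 130308595 to 130315463, plus strand) encodes the heart type of fatty acid-binding protein, a cytosolic lipid carrier. It had 31690 counts in replicate 4 (957 CPM, 946 to 967), 52 in replicate 5 (18.8 CPM, 14.0 to 24.7), 76 in replicate 7 (4.44 CPM, 3.50 to 5.56) and 0 in the others. Replicate 4 exceeded replicate 5 by 50.9-fold (38.8 to 68.1). In replicate 2, the limit at 3 counts was 0.182 CPM, so its 0 stood far below replicate 5.

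The related carrier Fabp5 was at 99.3, 144 and 151 CPM in replicates 2, 4 and 7 and at 0 in the other 4 embryos. Fabp3 thus made up 86.9% (86.5 to 87.2) of the reads of the 2 genes in replicate 4, 2.86% (2.26 to 3.56) in replicate 7 and 0 of 1634 in replicate 2. These shares are not corrected for exon length. Per kb of exon, Fabp3 and Fabp5 were at 1162 and 40.5 CPM in replicate 4 and at 5.39 and 42.3 in replicate 7. Scarb1, a receptor for lipoprotein lipid, was highest in replicate 7 at 99.3 CPM, against 33.7 in replicate 4. Slc27a4, a fatty acid transport protein, was at 390 CPM in replicate 3 and 25.9 in replicate 4. Of 17 listed fatty acid carriers, 7 were tested and 0 passed the test of spread. Fabp3 overlaps Zcchc17 on the opposite strand, which had 2902 counts in replicate 4, 512 in replicate 7, 37 in replicate 2 and 1 in replicate 5. Whether the 2 genes shared reads was not determined.

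Gm2a (ENSMUSG00000000594.7, chromosome 11 from 55098115 to 55113029, plus strand) encodes the GM2 activator, a lysosomal cofactor that presents ganglioside GM2 to hexosaminidase A. Replicates 2, 4, 5 and 7 held 2391, 16025, 600 and 1971 of its counts, and replicates 1, 3 and 6 held none. The levels were 145 (140 to 151), 484 (476 to 491), 217 (200 to 235) and 115 (110 to 120) CPM. Its 4 embryos spanned a narrower range than those of Fabp3 or Lrp2, and their intervals did not overlap. Replicate 4 exceeded replicate 5 by 2.23-fold (2.05 to 2.42). In replicate 5, where Fabp3 was the only other of the 9 genes with a read, Gm2a took 92.0% of their summed reads.

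Partners of Gm2a did not match it embryo by embryo. Hexa, the alpha subunit of hexosaminidase A, was at 331 CPM in replicate 4, 15.8 in replicate 2 and 0 in replicates 5 and 7. The lysosomal protease gene Ctsl had its highest level in replicate 5, at 1812 CPM, and 352 CPM in replicate 4. Ctsb, another cathepsin, was at 229 CPM in replicate 1 and 70.1 in replicate 4. All 13 listed genes of ganglioside breakdown and the lysosome were counted in replicates 2 and 4, 11 in replicate 5 and 1 in replicate 6, against 72.1, 84, 27.7 and 14.8% of all genes tested. None of the 13 passed the test of spread, and 7 had their highest CPM in replicate 4 (29.6% of all genes).

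Lrp2 and Dab2, a receptor and its adaptor in clathrin-mediated uptake, differed in where they were counted. Lrp2 (ENSMUSG00000027070.14, chromosome 2 from 69424340 to 69586065, minus strand) encodes megalin, a large receptor for lipoproteins and vitamin carriers. It had 15336 counts in replicate 4 (463 CPM, 456 to 470), 252 in replicate 2 (15.3 CPM, 13.5 to 17.3), 3 in replicate 1 (2.62 CPM, 0.541 to 7.66) and 0 in the others. Replicate 4 exceeded replicate 2 by 30.2-fold (26.7 to 34.4). In replicate 7, a deep library, the 0 counts of Lrp2 allowed up to 0.175 CPM.

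Dab2 (ENSMUSG00000022150.16, chromosome 15 from 6299788 to 6440712, plus strand) had counts in 5 embryos, 186, 976, 14471, 428 and 2556 in replicates 1, 2, 4, 6 and 7. These were 163 (140 to 188), 59.3 (55.7 to 63.2), 437 (430 to 444), 3065 (2782 to 3370) and 149 (144 to 155) CPM. Replicate 6 exceeded replicate 4 by 7.02-fold (6.36 to 7.73). Replicates 1 and 7 had overlapping intervals, and replicates 3 and 5 had none of its reads. Dab2 was the one gene of the 9 counted in replicate 6. In that library, 14.8% of all genes tested had a count, so short lists can be expected to hold few. Counts were found for 0 of 14 trophectoderm markers, 0 of 8 inner cell mass markers and 1 of 10 primitive endoderm markers (Gata4, 1 read). Oocyte markers were counted for 5 of 15 genes (3717 summed CPM), with Omt2b at 2607 CPM. Stroma and muscle markers were counted for 2 of 8 genes, with the matrix protein Dcn at 4240 CPM there and at most 9.62 CPM elsewhere. Oviduct and uterine epithelium markers were counted for 4 of 12, with Sprr2f at 1948 and Lcn2 at 1490 CPM. Of 7 blood and immune markers among the gene symbols, only 1 was counted, Csf1r with 18 reads. The part of oocyte RNA and of these tissues in the Dab2 level was not tested. In replicate 4, where Dab2 was at 437 CPM, stroma and muscle markers were at 0 for all 8 genes. Oviduct and uterine markers summed to 46.4 CPM there, and the source of that Dab2 level was not tested.

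Among partners of Lrp2, named here after their values were seen, Lrpap1 and Cubn were highest in replicate 4 and Amn was not. Lrpap1, the chaperone of this receptor family, was at 1868 CPM in replicate 4, 125 in replicate 2 and 15.8 in replicate 7. Cubn, the co-receptor cubilin, had 370 counts in replicate 4 and 8 in replicate 7, while Amn, which carries cubilin to the membrane, had 73 counts in replicate 7 and 0 in replicate 4. Clta, a clathrin light chain, was counted in all 7 embryos, with 585 CPM in replicate 4, 107 in replicate 2 and at most 12.4 in the others. Epn2, an endocytic adaptor of the epsin family, had its lowest level in replicate 4 (21.5 CPM), against 3324 CPM in replicate 7 and 2464 in replicate 1. Of the 25 listed endocytic genes that were tested, 14 had their highest CPM in replicate 4, where 29.6% of all genes tested had theirs, and 0 passed the test of spread.

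**Figure D3:**
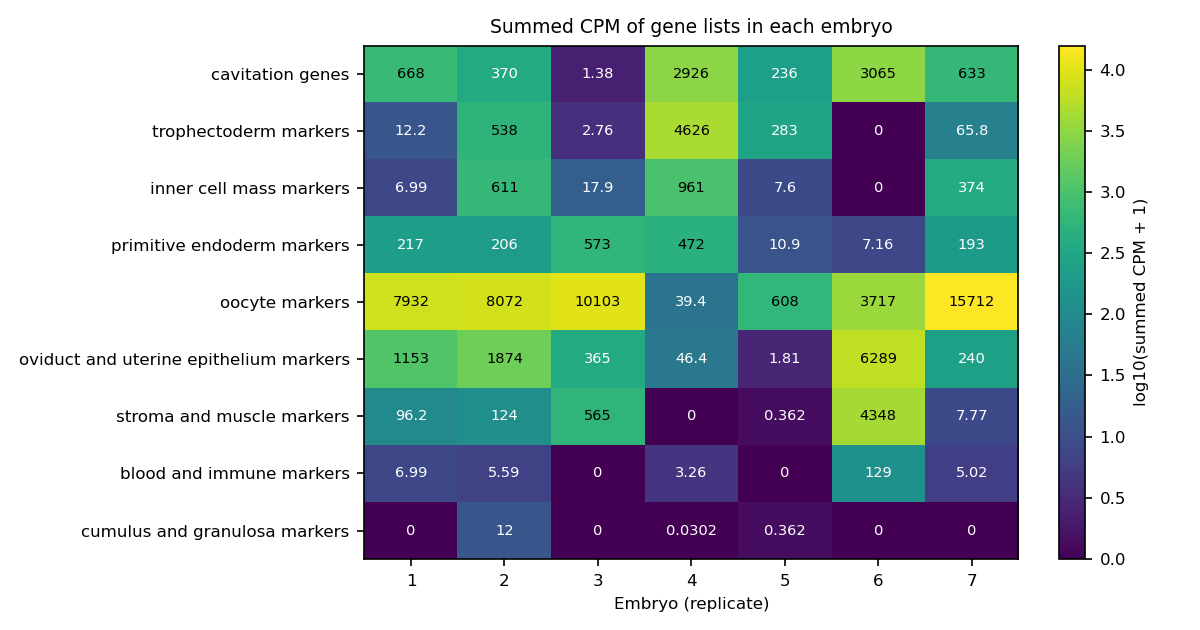
Summed CPM of the 9 cavitation genes and of 8 marker lists (rows) in the 7 embryos (columns). Colour is log10 of the summed CPM plus 1, and the sum is printed in each cell. Replicates 4 and 6 have the largest sums of cavitation genes (2926 and 3065 CPM), with trophectoderm markers at 4626 CPM in replicate 4 and 0 in replicate 6.

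Replicates 2 and 4 both had counts of trophectoderm markers but did not share all of the 9 genes. Replicate 4 had Krt8, a keratin of trophectoderm, at 1294 CPM and Elf3, an epithelial transcription factor, at 1074 CPM. In replicate 2, 9 of 14 trophectoderm markers were counted, against 72.1% of all genes tested. Krt8 was at 89.2 CPM, Elf3 at 188 CPM and Cdx2 at 0 there. That embryo had Slc2a3, Gm2a and a low level of Lrp2 but no read of Aqp3, Aqp8 or Fabp3. At 16452890 counts, those 0 counts each allowed up to 0.182 CPM. Oviduct and uterine epithelium markers were counted for 9 of 12 genes in replicate 2 (1874 summed CPM), with Lcn2 at 835 CPM. Stroma and muscle markers were counted there for 7 of 8 genes (124 summed CPM). The part of these tissues in the levels of replicate 2 was not tested. Inner cell mass markers summed to 961 CPM in replicate 4 and 611 CPM in replicate 2, with Pou5f1 at 513 and 51.1 CPM and Spp1 at 164 and 295 CPM. Primitive endoderm markers summed to 472 and 206 CPM in the same embryos. Gata6, a factor of that lineage, was at 381 CPM in replicate 4 and 0 in replicate 2. Gata4, another of these markers, went the other way, with 1176 counts (71.5 CPM) in replicate 2 but no read in replicate 4. Fgfr2 was also higher in replicate 2 (117 against 38.2 CPM). Of the 10 primitive endoderm markers, replicate 4 had counts for 5 and replicate 2 for 3, against 84 and 72.1% of all genes tested.

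Per kb of exon, the order of the 9 genes changed from embryo to embryo. In replicate 4 it was Fabp3 (1162 CPM per kb), Aqp3 (169), Gm2a (117), Dab2 (59.5), Lrp2 (27.7), Atp1b1 (26.6), Slc2a3 (19.8), Aqp8 (10.2) and Aqp9 (8.44). In replicate 2 the counted genes were led by Gm2a (35.2), Aqp9 (15.4), Slc2a3 (9.06) and Dab2 (8.08). In replicate 7 they were led by Atp1b1 (52.7), Aqp9 (46.1), Gm2a (27.9) and Dab2 (20.3), and in replicate 1 by Aqp9 (87.1), Atp1b1 (46.0) and Dab2 (22.1). Aqp9, last in replicate 4, was thus first or second in replicates 1, 2 and 7.

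The spread of each gene over the 7 embryos was large, and none of the 9 passed a test against genes of like abundance. In log2 CPM, Gm2a averaged 3.66 ± 5.40, Dab2 5.24 ± 5.22, Fabp3 1.27 ± 4.81, Atp1b1 2.83 ± 4.66 and Aqp9 3.47 ± 4.56 (SD, n = 7). Lrp2 averaged 0.97 ± 4.43, Slc2a3 1.31 ± 4.39, Aqp3 -0.48 ± 4.06 and Aqp8 -1.13 ± 2.48. The median SD was 4.56 over the 9 genes and 3.63 over the 11810. The edgeR quasi-likelihood dispersion of each gene was tested one-sided against that of genes of like abundance, with Benjamini-Hochberg adjustment. The adjusted p was 0.869 for each of the 9 genes (edgeR), and 0 of 11810 genes did (0%), with 67 at an unadjusted p under 0.05 and 0 dispersion outliers by DESeq2. The lowest unadjusted p among the 9 by this edgeR test were 0.0702 for Fabp3 and 0.110 for Aqp3. The common dispersion was 9.03, so a gene missing the threshold is not shown to be even between embryos. Leaving out replicate 4 lowered the median SD to 3.45 over the 9 genes and 3.27 over all genes. Among genes with a mean CPM of at least 10, it was 4.61 over 8 of the 9 genes and 4.06 over 7716 genes.

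**Figure D4:**
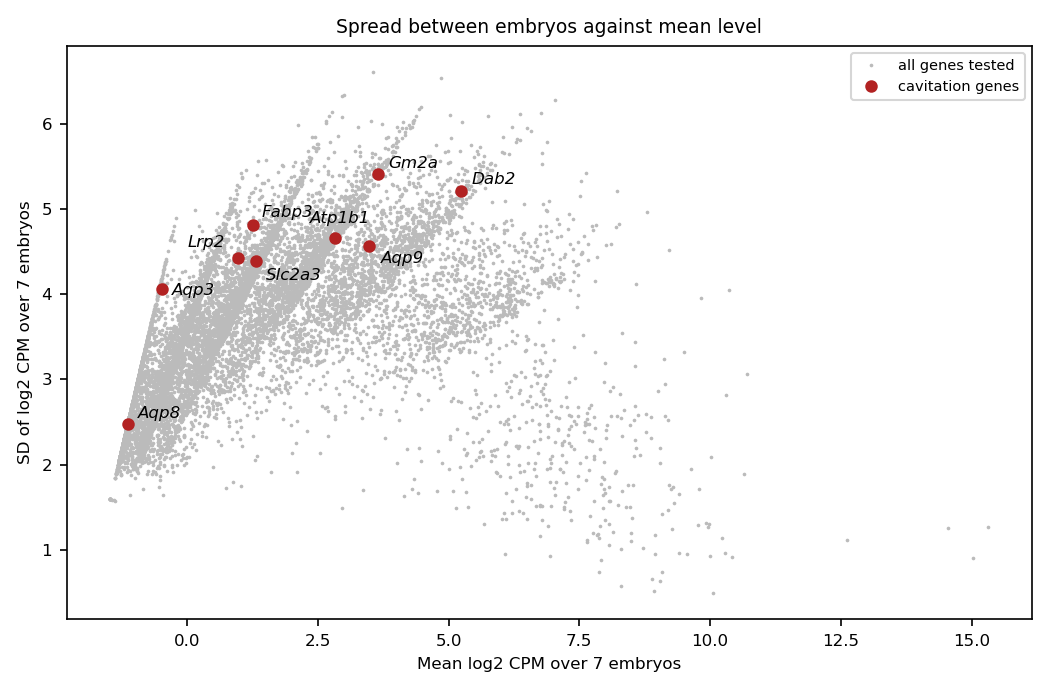
Standard deviation of log2 CPM over the 7 embryos (vertical axis) against mean log2 CPM (horizontal axis). Grey points are the 11810 genes tested and red points the 9 cavitation genes, which lie within the cloud, from Aqp8 with an SD of 2.48 to Gm2a with 5.40.

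The 4 genes counted in at least 4 embryos had many others of nearly the same profile. Likeness was Pearson's r of log2 CPM over 7 embryos, among 5280 other genes counted in at least 4 of them, and is given as a description. An r of 0.95 or more was shared with 205 genes for Atp1b1, 204 for Aqp9, 187 for Gm2a and 23 for Dab2. The closest to Atp1b1 were Ttc7, Iqsec1 and Wdr1 (r 0.998, 0.998 and 0.997). Those closest to Aqp9 were Ctdspl2, Mob3a and 4931406P16Rik (0.994, 0.991 and 0.990), and those closest to Dab2 were Fdx1, Gigyf2 and Sec61b (0.990, 0.986 and 0.985). For Gm2a they were Rpl15, Pgd and Chchd10, each with r of at least 0.997. The embryos at 0 weigh heavily in these values: the 3 genes closest to Gm2a were, like it, uncounted in replicates 1, 3 and 6.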

How the data were processed

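Polyadenylated RNA of 7 single embryos was measured with SMART-Seq v4 and Nextera XT libraries, per the labels' protocols. HISAT2 2.0.5, featureCounts 1.5.0-p2, Subread, limma and GRCm38 are named in the submitters' processing notes; their order, settings, annotation and use of strand are not stated there. The authors deposited a table of raw read counts. The log2 table deposited by the authors was recomputed here from the counts as quantile-normalized log2 CPM, to within 4.97e-14.

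All columns were used. Scaling used TMM factors (edgeR 4.0.16, R 4.3.3), log2 CPM a prior count of 2, and CPM of single genes the library total. Genes whose mean CPM was at least 1 were tested for dispersion (threshold 0.05, prior degrees of freedom common to all genes), with a script checked on simulated data. DESeq2 1.42.0 and limma 3.58.1 served as alternatives. Exact Poisson and Clopper-Pearson intervals (95%) used scipy 1.17.1. Positions and merged exon lengths came from GENCODE M21, which names 22468 of the table's symbols. The 15 gene lists hold 199 entries, of which 197 are in the table. Named beside the 9 genes were, per family list, the 2 others counted in most embryos and, per marker list, the 2 of highest mean CPM. Atp1b2, Fabp5, Hexa, Lrpap1, Cubn, Amn, Gata4 and Cdx2 were added after their values were seen. Some genes that this rule names are not reported here. Members, lists and motifs were chosen with earlier results of these data known. A total count of 139619 sets the coarsest limit, 21.5 CPM for 3 counts.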

Additional observations from a re-analysis of the deposited data

Results flagged for a closer look

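Aqp3 and Aqp8 were flagged because replicate 4 stood far from the other 6 embryos. The gap between replicate 4 and the next embryo, divided by the range of log2 CPM, was 0.970 for Aqp3 and 1.0 for Aqp8, above Dixon's 95% critical value for 7 samples in both. Apart from 1 read of Aqp3 in replicate 7, the other 6 embryos had no read of either gene, so their values tied at the floor and a ratio near 1 followed by construction. The usual rate of about 1 chance flag in 20 groups does not apply to such values, and 7.62% of all genes tested were counted in replicate 4 and no other embryo. Both genes had a mean CPM of at least 1 through replicate 4 alone. Replicate 4 was also the deepest library, with 33123742 counts. It had the most trophectoderm markers, 13 of 14, and 84% of all genes tested were counted there.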

How the results depend on the processing

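With the authors' log2 table and limma, 2 genes passed the test of spread (Zbed3 and Siah2, neither of them among the 9), against 0 in the other settings, DESeq2 and each left-out embryo included; the cause was not tested. The median SD of the 9 genes was 5.42 with a prior count of 0.5, whose lower floor widens the range, and from 3.45 (without replicate 4) to 4.81 (without replicate 1) when 1 embryo was left out. In replicate 3 the single counted gene became 0.192 expected genes at the lowest total and 0 at a minimum of 3 counts. Mean log2 CPM moved with single embryos: for Dab2 it ran from 4.12 without replicate 6 to 6.48 without replicate 5, for Fabp3 from 0.20 without replicate 4 to 1.95 without replicate 2, and for Gm2a from 2.89 without replicate 5 to 4.51 without replicate 1. All 108 alternative means lay within 1 SD of the reported ones, which says little at SDs of 2.48 to 5.40. Of 70 recomputed shares of the library, from other totals or from leaving out 1 gene, 31 left the counting interval. Depth limits the smallest library most: 3 counts there equal 21.5 CPM. No paired analysis was possible because the labels form 1 group.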
